A study of Mus musculus with 8 samples.

Results

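The growth hormone receptor, its kinase JAK2, the transcription factors STAT5A and STAT5B, the feedback inhibitor SOCS2, and insulin-like growth factor 1 with its receptor form 1 signalling axis, followed here in mouse small intestinal epithelium. The axis was taken as 7 genes (Ghr, Jak2, Stat5a, Stat5b, Socs2, Igf1 and Igf1r), each read from probe sets that name that gene alone, out of 19938 genes measured on 8 Affymetrix arrays. All 7 were measured, with 8 probe sets in total, since Socs2 has a second one. No gene was left out by a filter on low values. Ghr itself was lower, by similar amounts, in all 4 knockdown arrays than in their labelled controls, and was thus chosen by its measured differences in these same arrays, which are given as a description with no test. The other 6 genes were chosen as partners of Ghr and are read from fits over all genes.

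Each array carries RNA of isolated small intestinal epithelial cells from male mice of the outbred ICR stock, aged 8 weeks, 4 days after siRNAs or plasmids were delivered to the gut in vivo. The 4 groups were siGFP (an siRNA against green fluorescent protein as control, n = 3), siYAP/TAZ (siRNAs against the transcriptional coactivators YAP and TAZ, n = 3), shLacZ (a plasmid for a control hairpin RNA, n = 1) and shYAP/TAZ (plasmids for hairpin RNAs against YAP and TAZ, n = 1). In the labels, each control array is described as the control for 1 named knockdown array, which gives 3 siRNA pairs and 1 shRNA pair, without saying what a pair shares or whether replicates came from separate mice. P-values therefore reflect only how far these samples differ among themselves, and that spread could be technical.

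As background, growth hormone from the pituitary binds its receptor on the cell surface, the receptor activates JAK2, and JAK2 phosphorylates STAT5A and STAT5B, which enter the nucleus and switch on genes such as Socs2, Cish and, in the liver above all, Igf1. SOCS2 and CISH dampen the receptor in turn. IGF1 acts through IGF1R and the PI3K and AKT kinases, and in the gut it is made largely by cells of the connective tissue under the epithelium and acts on crypt cells.

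All values below are log2 quantile normalized intensities, and differences are knockdown minus control on that log2 scale. The labelled target genes were not measurably lower in these libraries. Yap1 differed by -0.12 (standard error, SE, 0.32) and Wwtr1, which encodes TAZ, by -0.28 (SE 0.36) between siYAP/TAZ and siGFP, with limma adjusted p = 1.00 for both, so the groups are called by their labels throughout. Epithelial markers were high: Epcam, Krt8 and Cldn7 lay at mean levels of 11.93, 12.32 and 12.04, and the 10 epithelial markers averaged 10.31 to 10.82 in each array. All 10 were lower in the siRNA mean, with a median difference of -0.27, where 53.6% of all genes were lower. Their median difference in the shRNA pair was 0.11. The 9 B and plasma cell markers averaged 4.99 to 5.58 in siGFP, 5.04, 7.97 and 6.90 in siYAP/TAZ arrays 1, 2 and 3, 5.70 in shLacZ and 4.84 in shYAP/TAZ, and all 9 were higher in the siRNA mean. Markers of ileal and proximal enterocytes had median differences of 1.75 and -2.12 in siRNA pair 2 and -2.19 and 0.76 in pair 3. The isolates of these pairs thus differed in markers of gut position and of B cells, and their part in the results was not tested. The 4 arrays of siRNA pairs 2 and 3 stood apart from the other 4: 202 probe sets lay at least 1 log2 unit higher in all of them, and 25 lay as far below. No labelled pair crosses that divide, and no label names a batch.

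Ghr, the cell surface receptor for growth hormone, was lower in every knockdown array than in any control array. It measured 7.72, 8.16 and 7.30 in siGFP arrays 1, 2 and 3, and 6.48, 6.40 and 5.60 in siYAP/TAZ arrays 1, 2 and 3. The shLacZ array gave 7.92 and the shYAP/TAZ array 6.62. The 4 controls thus lay between 7.30 and 8.16 and the 4 knockdowns between 5.60 and 6.62, with no overlap. On the deposited linear scale the same intensities were 224, 277 and 161 in siGFP, 84.6, 80.0 and 47.5 in siYAP/TAZ, 249.9 in shLacZ and 108.5 in shYAP/TAZ.

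The difference was even across pairs. It was -1.24, -1.76 and -1.70 in siRNA pairs 1, 2 and 3 and -1.31 in the shRNA pair, with an SD of 0.26 over the 4. The siGFP mean was 7.72 ± 0.43 (SD, n = 3) and the siYAP/TAZ mean 6.16 ± 0.49 (SD, n = 3), which is 2.96-fold lower, a log2 difference of -1.56 (SE 0.37). Over the 4 pairs the mean was -1.50, or 2.83-fold lower. Since these values chose the gene, they support nothing by themselves: of all genes, 267 (1.34%) had 4 knockdown arrays below 4 control arrays.

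**Figure D1:**
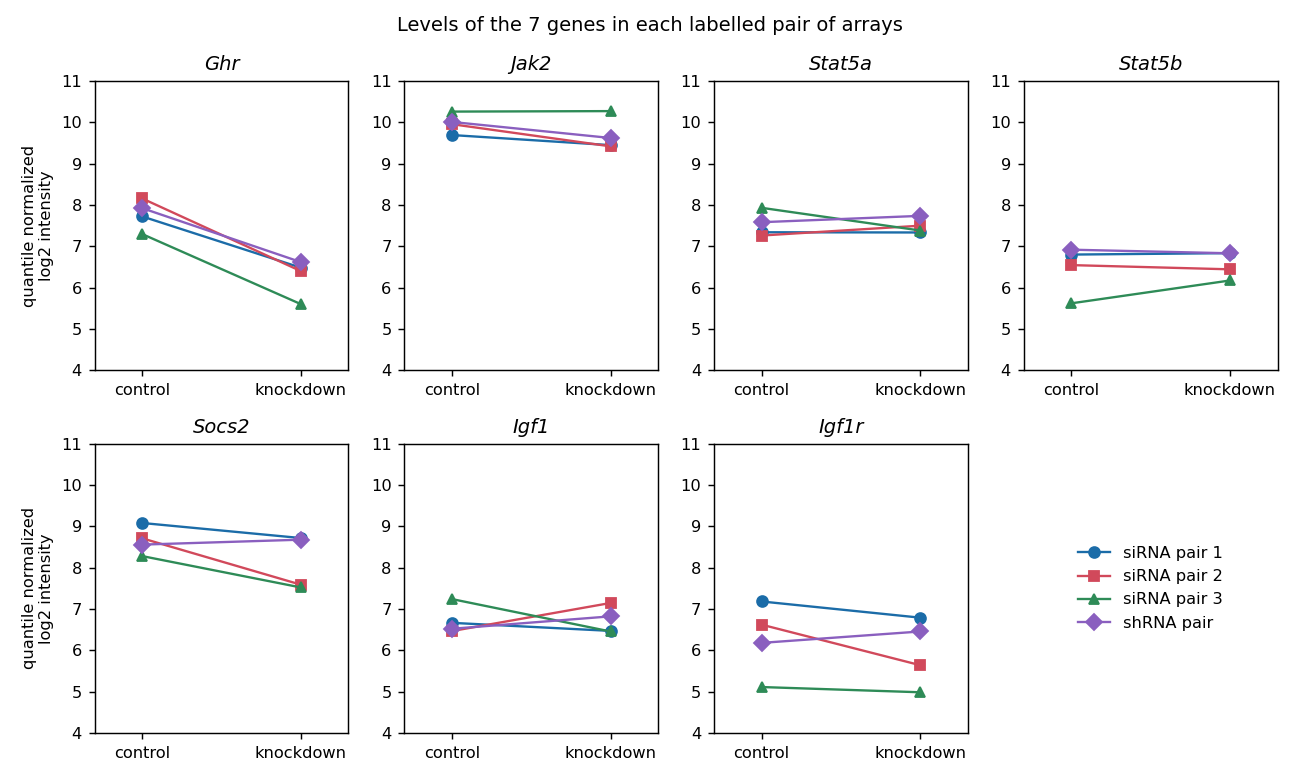
Log2 quantile normalized intensity (y axis) of each of the 7 genes (panels) in each of the 8 arrays, with control arrays on the left, knockdown arrays on the right and each labelled pair joined by a line. Ghr runs from 5.60 to 6.62 in the 4 knockdown arrays and from 7.30 to 8.16 in the 4 controls, whereas control and knockdown values of the other 6 genes overlap.

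In bulk RNA, fewer cells of a type and less RNA per cell cannot be told apart, so cell type markers were set beside each gene. The 13 measured markers of crypt base stem cells had median differences of -0.78, -1.81 and -0.18 in siRNA pairs 1, 2 and 3 and -0.42 in the shRNA pair. The Ghr difference was -1.70 in pair 3, where the median of those markers was nearest 0. All 13 were lower in the siRNA mean and 7 of 13 in all 4 pairs, where 8.95% of all genes were. The siYAP/TAZ arrays averaged 6.33 to 7.79 over these markers and the siGFP arrays 6.54 to 8.51. Of the 15 cell type lists, the crypt base mean had the highest correlation with Ghr over the 8 arrays, which share pairs (r = 0.73, rho = 0.76, and r = 0.54 without the 2 farthest arrays). That order did not hold with the 2 farthest arrays of each list left out. The Paneth cell mean then had r = 0.77, the macrophage and myeloid mean -0.78 and the proximal enterocyte mean -0.75. The 11 absorptive enterocyte markers averaged 11.13, 11.91 and 12.53 in siYAP/TAZ arrays 1, 2 and 3 and 11.08, 12.45 and 12.48 in siGFP, and 5 of the 11 were lower in all 4 pairs. The part of cell makeup in the Ghr difference was not tested.

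RefSeq lists 2 transcription starts for Ghr with promoter windows of 250 bases before the start (GRCm38.p6, minus strand), shown here because Ghr carries the difference. Those of Cish and Socs3 are shown with them, as SOCS family inhibitors whose differences had opposite signs. Windows were searched on both strands for the STAT5-type motif TTCNNNGAA and for the core motif of TEAD factors, the DNA-binding partners of YAP and TAZ, GGAATG or its reverse complement CATTCC. Capitals mark a match, and a window without capitals holds neither motif. The Ghr windows lie at chr15:3583353-3583602 and chr15:3581843-3582092, the Cish window at chr9:107296409-107296658 on the plus strand and the Socs3 window at chr11:117969367-117969616 on the minus strand.
Ghr start 1: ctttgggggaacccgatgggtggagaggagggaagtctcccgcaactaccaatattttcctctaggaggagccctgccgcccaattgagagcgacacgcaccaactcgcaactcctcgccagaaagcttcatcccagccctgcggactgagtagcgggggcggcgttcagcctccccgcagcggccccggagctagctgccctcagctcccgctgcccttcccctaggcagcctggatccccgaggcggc
Ghr start 2: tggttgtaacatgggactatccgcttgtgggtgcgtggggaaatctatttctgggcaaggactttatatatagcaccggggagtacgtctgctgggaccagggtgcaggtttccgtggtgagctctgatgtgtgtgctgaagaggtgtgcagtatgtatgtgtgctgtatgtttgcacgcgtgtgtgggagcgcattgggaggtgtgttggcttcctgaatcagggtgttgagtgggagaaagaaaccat
Cish: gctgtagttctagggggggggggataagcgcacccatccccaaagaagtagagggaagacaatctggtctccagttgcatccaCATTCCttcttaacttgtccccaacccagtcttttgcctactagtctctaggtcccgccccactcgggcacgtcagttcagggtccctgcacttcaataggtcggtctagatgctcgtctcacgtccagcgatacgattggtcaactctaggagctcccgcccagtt
Socs3: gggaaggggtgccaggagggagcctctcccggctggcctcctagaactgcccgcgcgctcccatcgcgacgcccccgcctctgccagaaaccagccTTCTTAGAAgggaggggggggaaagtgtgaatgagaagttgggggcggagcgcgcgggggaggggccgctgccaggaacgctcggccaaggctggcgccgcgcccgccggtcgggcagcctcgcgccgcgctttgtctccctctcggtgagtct

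The first Ghr window has 65.6% G and C with 17 CpG dinucleotides and the second 52.0% with 8, where the median of all windows is 52.4% G and C. Neither Ghr window holds either motif. RefSeq windows were given for 6 of the 7 genes (all but Socs2), 9 windows in all, and none of the 9 holds either motif. The Cish window holds CATTCC from base -167 and the Socs3 window TTCTTAGAA from base -154, counted from the start. Of 32851 mouse windows of the same length, 7.02% hold TTCNNNGAA and 12.6% hold GGAATG or CATTCC. A match or its lack in these letters says nothing about binding in these cells.

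Jak2 encodes the kinase bound to the receptor, and the 2 STAT5 genes encode the factors it phosphorylates; none of the 3 passed the test in either fit. Jak2 measured 9.69, 9.96 and 10.26 in siGFP and 9.45, 9.42 and 10.27 in siYAP/TAZ, with 10.01 in shLacZ and 9.62 in shYAP/TAZ. The lowest arrays are siYAP/TAZ 1 and 2, but siYAP/TAZ 3 is the highest of all 8, and the groups overlap. Its difference was -0.26 (SE 0.34, 95% interval -1.03 to 0.52) in the siRNA arm (limma adjusted p = 1.00) and -0.29 over the 4 pairs (limma adjusted p = 0.825). Leaving out 1 array moved the siRNA value to -0.54 (without siYAP/TAZ 3), -0.39 (without siGFP 1), -0.12 (without siYAP/TAZ 1) or -0.11 (without siGFP 3 or siYAP/TAZ 2).

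Stat5a measured 7.34, 7.26 and 7.93 in siGFP, 7.33, 7.50 and 7.38 in siYAP/TAZ, 7.58 in shLacZ and 7.74 in shYAP/TAZ. The highest array was a control, siGFP array 3, and the others lay between 7.26 and 7.74. The siRNA difference was -0.11 (SE 0.30, 95% interval -0.79 to 0.58; limma adjusted p = 1.00), and over the 4 pairs it was -0.04 (limma adjusted p = 0.984). Without siGFP array 3 the siRNA difference was 0.11, so that 1 array set its sign.

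Stat5b measured 6.80, 6.54 and 5.62 in siGFP, 6.83, 6.44 and 6.17 in siYAP/TAZ, 6.92 in shLacZ and 6.83 in shYAP/TAZ. Both arrays of siRNA pair 3 are the lowest of the 8, control included, and the groups overlap. The siRNA difference was 0.16 (SE 0.38, 95% interval -0.70 to 1.03; limma adjusted p = 1.00), and over the 4 pairs 0.10 (limma adjusted p = 0.959). It was -0.19 without siGFP array 3 and -0.01 without siYAP/TAZ array 1. These siRNA intervals, from a fit that does not use the pairs, leave room for shifts of STAT5 genes of over 0.5 log2 units either way. Over the 4 pairs the 95% intervals were narrower, -0.50 to 0.42 for Stat5a and -0.35 to 0.55 for Stat5b. Stat3, the neighbour of both STAT5 genes on chromosome 11 in the RefSeq gene order and the factor downstream of interleukin 6 type receptors, was higher in all 4 pairs (0.08, 0.57, 0.27 and 0.43), without passing the test (mean 0.33, limma adjusted p = 0.787).

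Socs2, a STAT5 target whose product brakes growth hormone signalling, was lower in the 3 siRNA pairs and not in the shRNA pair, and did not pass the test. It measured 9.08, 8.71 and 8.28 in siGFP and 8.72, 7.59 and 7.52 in siYAP/TAZ, with 8.56 in shLacZ and 8.68 in shYAP/TAZ. The siYAP/TAZ arrays 2 and 3 are the lowest of the 8, while siYAP/TAZ array 1 lies within the control range. By pair the differences were -0.36, -1.12, -0.76 and, in the shRNA pair, 0.12.

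The siRNA difference of Socs2 was -0.75 (SE 0.40, 95% interval -1.67 to 0.17; limma adjusted p = 1.00). Over the 4 pairs it was -0.53 (SE 0.23; limma adjusted p = 0.663), and Socs2 was among the 1493 genes (7.49%) with an unadjusted p under 0.05. The value leans on single arrays: it was -1.14 without siYAP/TAZ array 1 and -0.54 without siYAP/TAZ array 3. The dimmer second probe set of Socs2 gave nearly the same differences, -0.42, -1.14, -0.59 and 0.06.

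Igf1, the growth factor, showed no common direction. It measured 6.66, 6.47 and 7.24 in siGFP, 6.47, 7.15 and 6.46 in siYAP/TAZ, 6.52 in shLacZ and 6.82 in shYAP/TAZ. The pairs went both ways, with differences of -0.19, 0.68, -0.78 and 0.30, and the mean over the 4 was 0.00 (limma adjusted p = 1.00). In the siRNA arm it was -0.10 (SE 0.34, 95% interval -0.88 to 0.68; limma adjusted p = 1.00), turning to 0.13 without siGFP array 3, 0.01 without siYAP/TAZ array 1 and 0.02 without siYAP/TAZ array 3.

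The 10 fibroblast markers, from connective tissue cells that make IGF1, had median differences of -0.40, 0.13, -0.38 and 0.00 in the same order of pairs. Their mean level was 6.93 to 7.58 in siGFP, 6.52 to 7.48 in siYAP/TAZ, 7.02 in shLacZ and 7.31 in shYAP/TAZ. The 11 markers of macrophages and other myeloid cells had median differences of 0.19, 0.22, 0.04 and 0.89. Ileal enterocyte markers, 9 genes, had larger medians of the same signs as Igf1 in the siRNA pairs (-0.60, 1.75 and -2.19) and -0.07 in the shRNA pair. The part of these cells and of gut position in the Igf1 values was not tested.

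Igf1r, the receptor for IGF1, varied more between arrays than any other gene of the axis but Ghr. It measured 7.18, 6.62 and 5.11 in siGFP and 6.79, 5.64 and 4.98 in siYAP/TAZ, with 6.18 in shLacZ and 6.46 in shYAP/TAZ. Both arrays of pair 3 are the lowest, control included, so the range of 2.20 log2 units over the 8 arrays does not follow the groups. The pair differences were -0.39, -0.98, -0.13 and 0.28.

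The siRNA difference of Igf1r was -0.50 (SE 0.61, 95% interval -1.89 to 0.89; limma adjusted p = 1.00), and it was -0.31 over the 4 pairs (limma adjusted p = 0.862). In the siRNA fit, which does not use the pairs, leaving out single arrays moved the difference. It was -0.06 without siGFP array 1, -0.09 without siYAP/TAZ array 3, -1.10 without siGFP array 3 and -0.99 without siYAP/TAZ array 1. Leaving out 1 whole pair gave 4-pair values from -0.50 to -0.08.

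**Figure D2:**
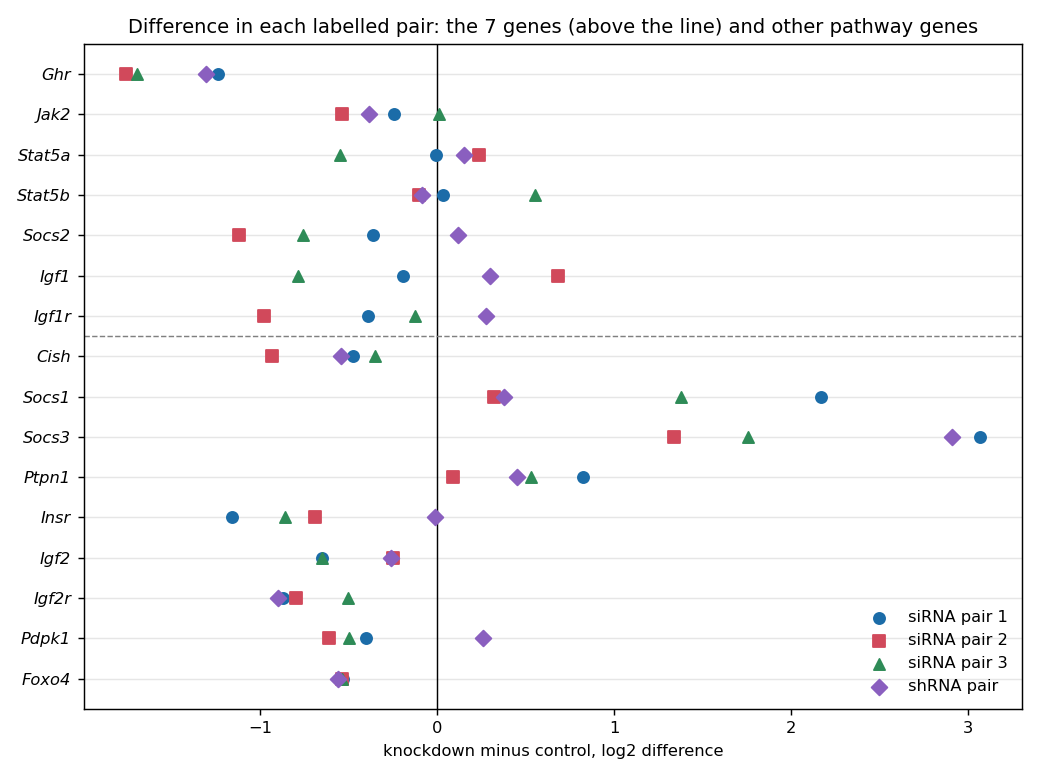
Knockdown minus control difference (x axis, log2) of each of the 7 genes (above the dashed line) and of other pathway genes described further on (under it), 1 point for each of the 3 siRNA pairs and the shRNA pair. Ghr lies between -1.76 and -1.24 in every pair, while the pairs of the other 6 genes fall on both sides of 0.

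Counted together, 1 of the 7 genes, Ghr, was lower in all 4 pairs and none was higher, beside 1785 (8.95%) of all genes lower and 1200 (6.02%) higher in all 4; the Ghr count was fixed by its choice. Of the 6 others, 5 were lower in the siRNA mean (all but Stat5b), where 53.6% of all genes were, and 4 of 6 in the 4-pair mean, where 53.5% were. Their median difference was -0.18 in the siRNA arm and -0.16 over the 4 pairs, against -0.02 for all genes in both. None of the 6 had siYAP/TAZ arrays all on one side of the siGFP arrays, which 597 genes (2.99%) showed downwards and 319 (1.6%) upwards.

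None of the 6 passed limma's test in either fit. The siRNA fit called 0 of 19938 genes lower (0.0%) and 0 higher (0.0%), with 237 (1.19%) at an unadjusted p under 0.05. The 4-pair fit called 2 lower (0.01%) and 2 higher (0.01%), none of them in this axis. The siRNA and 4-pair fits share the 6 siRNA arrays and are not independent. The difference between deliveries, shRNA effect minus siRNA effect, was 0.87 for Socs2 (95% interval -0.35 to 2.09) and 0.78 for Igf1r (-0.47 to 2.02), with limma adjusted p = 1.00 for all 6.

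Socs2 and Igf1r ran together over the arrays. Across the 8 arrays, Pearson's r was 0.86, Spearman's rho 0.98, and r without the 2 arrays farthest from the median 0.95. This describes 8 arrays that share pairs and the divide named above, out of 21 gene pairs looked at. The same comparison of Ghr with Socs2 gave r = 0.69, rho = 0.55 and 0.46 without 2 arrays, and with Igf1r 0.50, 0.48 and 0.12.

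Markers of crypt and dividing cells were lowest in the arrays where Igf1r and Socs2 were lowest. The 11 mitotic markers, such as Mki67 and Top2a, averaged 8.35, 7.80 and 5.73 in siGFP, 8.64, 5.95 and 5.75 in siYAP/TAZ, 7.83 in shLacZ and 7.87 in shYAP/TAZ. The 3 arrays with the lowest mitotic mean, siYAP/TAZ 2 and both arrays of pair 3, are also the 3 lowest in Igf1r (4.98 to 5.64) and in Socs2 (7.52 to 8.28). Those 3 are separated from the other 5 in mitotic level by a wide gap, so no correlation is given.

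The 6 Paneth cell markers showed the same 3 arrays lowest, at 8.31 to 8.53 against 9.80 to 10.68 in the others. In pair 2, where crypt base, mitotic and Paneth markers had median differences of -1.81, -1.75 and -1.73, Socs2 and Igf1r had their largest differences, -1.12 and -0.98. In pair 3, where these medians were -0.18, -0.06 and 0.26, Socs2 differed by -0.76 and Igf1r by -0.13. The other pairs did not all share signs with the markers. siRNA pair 1 had medians of -0.78, 0.24 and -0.09, with Socs2 at -0.36 and Igf1r at -0.39. The shRNA pair had medians of -0.42, 0.02 and -0.54, with Socs2 at 0.12 and Igf1r at 0.28. The part of crypt cells in either result was not tested.

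**Figure D3:**
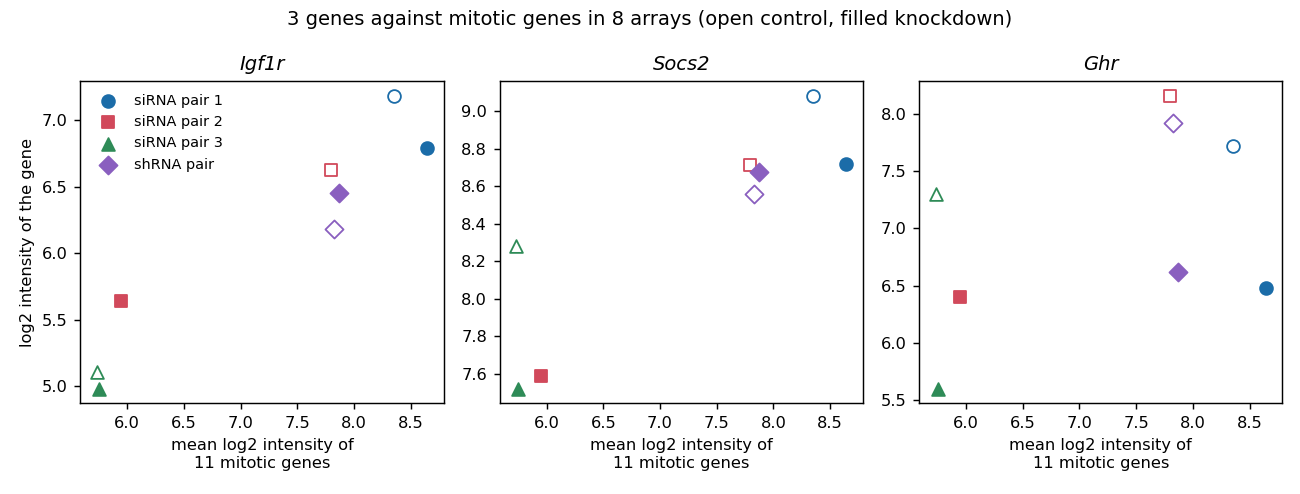
Log2 intensity of Igf1r, Socs2 and Ghr (panels, y axis, each on its own scale) against the mean log2 level of 11 mitotic marker genes (x axis) in each of the 8 arrays, with open points for controls and filled points for knockdowns. Igf1r and Socs2 are lowest in the 3 arrays with a mitotic mean of 5.73 to 5.95, whereas Ghr is low in all 4 knockdown arrays at mitotic means from 5.75 to 8.64.

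Genes whose pattern was most like that of Ghr over the 8 arrays were sought among 10370 genes by Pearson's r. The highest were Itpripl2 (r = 0.97), Ash2l, a subunit of histone H3 lysine methyltransferase complexes (0.97), Dnmbp (0.95), Kmt5a, a histone H4 lysine methyltransferase (0.95), Strbp (0.94) and P2ry1, a receptor for extracellular ADP (0.94). Their pair differences were smaller than those of Ghr, from -0.48 to -0.97 for Itpripl2 and from -0.53 to -1.29 for Ash2l. The most opposite genes were Sbno2 (r = -0.92), Il15ra, the interleukin 15 receptor alpha chain (-0.92), Gsg1 (-0.92) and Kctd5 (-0.91). Since Ghr splits the arrays into controls and knockdowns, this search favours genes that differ between them too. The 6 were lower and the 4 higher in every pair, and whether their control and knockdown arrays overlap was not examined. Without 2 arrays, r ranged from 0.89 (Strbp) to 0.99 (P2ry1) among the 6 and from -0.92 (Kctd5) to -0.83 (Gsg1) among the 4.

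For Igf1, the 4 most alike genes were Pld2, Fxyd4, Ibsp and Lin7b (r = 0.95, 0.95, 0.94 and 0.94). Without 2 arrays these r values were 0.63, 0.76, 0.69 and 0.51, so they rest largely on the siYAP/TAZ 2 and siGFP 3 arrays, which hold the highest Igf1 values.

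Around the 7 genes, 9 lists of the wider pathway held 121 other measured genes of 135 listed. Limma called 0 of the 121 in either fit, with 6 at an unadjusted p under 0.05 in the siRNA arm (1.19% of all genes) and 15 over the 4 pairs (7.49% of all genes). In the siRNA mean 62 were lower and 59 higher, with a median difference of -0.01. In the 4-pair mean 56 were lower and 65 higher, with a median of 0.03. In all 4 pairs 15 were lower (12.4%) and 10 higher (8.26%), beside 8.95% and 6.02% of all genes.

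Among ligands and receptors, no shift in one direction was seen in the siRNA mean. The ligand list (Gh, Prl, Ghrh, Ghrhr, Ghrl, Ghsr, Sst, Sstr2, Lep and Epo) had 4 of 10 genes lower and 6 higher in the siRNA mean, with a median of 0.06. In the 4-pair mean 5 were lower and 5 higher. Gh itself lay at a mean of 5.66, the 22.4th percentile of all genes. Ghrl, the gut hormone that stimulates growth hormone release, was lower in all 4 pairs (-0.16, -1.09, -0.04 and -0.42). It was named after its values were seen and did not pass the test (4-pair mean -0.43, limma adjusted p = 0.739). Ghrl was the 1 gene of this list lower in all 4 pairs, beside 8.95% of all genes. None of the list was higher in all 4, beside 6.02% of all genes. Of the other receptors that use JAK2, 14 of 16 were measured, with 8 lower, 6 higher and a median of -0.01 in the siRNA arm. In the 4-pair mean 4 of them were lower and 10 higher, with a median of 0.17, where 53.5% of all genes were lower. By pair their medians were -0.05, 0.22 and -0.07 in siRNA pairs 1, 2 and 3 and 0.41 in the shRNA pair. The other JAK and STAT genes, 6 of 8 measured, split 3 and 3 in the siRNA mean, with 2 lower and 4 higher in the 4-pair mean.

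The inhibitors and adaptors of the receptor gave 7 of 20 lower and 13 higher in the siRNA mean, with a median of 0.03. The members with the largest differences, Socs3 and Socs1, were both higher, and Cish had the largest difference downwards. Socs3, the inhibitor induced mainly by STAT3, measured 6.41, 6.66 and 7.09 in siGFP and 9.48, 8.00 and 8.85 in siYAP/TAZ, with 6.38 in shLacZ and 9.29 in shYAP/TAZ. All 4 knockdowns lie above all 4 controls, with pair differences of 3.07, 1.34, 1.76 and 2.91.

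The Socs3 difference was 2.05 (SE 0.41; limma adjusted p = 1.00) in the siRNA arm and 2.27 (SE 0.30; limma adjusted p = 0.0608) over the 4 pairs. It passed the threshold in 9 of 14 alternative settings of the 4-pair fit, with adjusted p from 0.00233 to 0.422 over all 14. The second Socs3 probe set, for which no RefSeq mRNA is listed, gave 0.43, 0.93, 0.42 and 0.73. It was dimmer in the mean of the 8 arrays, but not in every control. It measured 6.74, 6.58 and 6.95 in siGFP and 6.82 in shLacZ, brighter than the first in siGFP array 1 and shLacZ. Myeloid markers had a median difference of 0.89 in the shRNA pair and 0.19, 0.22 and 0.04 in siRNA pairs 1, 2 and 3; their part in the Socs3 values was not tested.

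Ptpn1, a phosphatase that removes phosphate from JAK2, was higher in all 4 pairs (0.82, 0.09, 0.53 and 0.45; 4-pair mean 0.47, limma adjusted p = 0.638). Socs1, named after its values were seen, gave 2.17, 0.32, 1.38 and 0.38 (mean 1.06, limma adjusted p = 0.401), and 0.73 in the siRNA arm without siYAP/TAZ array 1 against 1.29 with it.

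Cish, the SOCS family member most closely tied to STAT5 and also named after its values were seen, was lower in all 4 pairs. It was the 1 such gene of the 20 inhibitors and adaptors (5.0%), beside 8.95% of all genes. Of the same 20, 4 were higher in all 4 pairs (20.0%), beside 6.02% of all genes. Cish measured 6.19, 6.03 and 5.66 in siGFP, 5.71, 5.09 and 5.31 in siYAP/TAZ, 6.23 in shLacZ and 5.69 in shYAP/TAZ. The siYAP/TAZ 1 and shYAP/TAZ arrays lie just above the lowest control, so the groups overlap. The pair differences were -0.48, -0.93, -0.35 and -0.54, with a 4-pair mean of -0.58 (SE 0.19; limma adjusted p = 0.499) at a mean level in the 24.8th percentile of all genes.

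Target genes of STAT5, 18 of 20 measured, gave 8 lower and 10 higher in the siRNA mean with a median of 0.09. In the 4-pair mean 4 were lower and 14 higher, with a median of 0.14, where 53.5% of all genes were lower. In all 4 pairs 3 were lower (Cish, Mcl1 and Ccnd2, the last a G1 cyclin at -0.35, -0.85, -0.39 and -1.11) and 3 higher (Socs1, Socs3 and Igfals), beside 8.95% and 6.02% of all genes. The liver-type growth hormone response genes, 14 of 17 measured, gave 8 lower and 6 higher in the siRNA mean, and 5 lower and 9 higher in the 4-pair mean.

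Cyp4a12a and Cyp4a12b of that list, fatty acid hydroxylases that growth hormone pulses maintain in male mouse liver, stood above the controls in every knockdown array. Cyp4a12a measured 4.61, 4.44 and 4.50 in siGFP and 7.33, 4.88 and 6.03 in siYAP/TAZ, with 4.60 in shLacZ and 10.05 in shYAP/TAZ. The 4 controls lie within 0.2 log2 units near the bottom of the scale, while the knockdowns range widely. The pair differences were 2.72, 0.45, 1.54 and 5.45 (4-pair mean 2.54, limma adjusted p = 0.318), with a mean of 1.57 without the shRNA pair. Those of Cyp4a12b were 2.92, 0.14, 0.87 and 5.28 (mean 2.30, limma adjusted p = 0.41). Cyp4a12a passed the threshold in 2 alternatives, with array weights (limma adjusted p = 0.042) and in siRNA pair 1 with the shRNA pair alone (0.0216), and Cyp4a12b in the latter (0.0131). The range over all alternatives was 0.0216 to 1.00 and 0.0131 to 1.00. The 2 genes are near-identical and can share array signal, and the 6 hepatocyte markers had median differences of 0.04, 0.17, -0.10 and 0.00.

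Among IGF ligands, receptors and substrates, 9 of 10 measured, 5 were lower and 4 higher in the siRNA mean, and 2 receptors had siYAP/TAZ arrays all below siGFP, as 2.99% of all genes did. In all 4 pairs 3 were lower (Igf2, Igf2r and Insr) and 1 higher (Igfals), beside 8.95% and 6.02% of all genes. Insr, the insulin receptor, measured 9.47, 9.38 and 9.98 in siGFP and 8.31, 8.68 and 9.12 in siYAP/TAZ, and 9.56 and 9.54 in shLacZ and shYAP/TAZ. The siRNA groups do not overlap, while the 2 shRNA arrays are nearly equal. Its siRNA difference was -0.91 (SE 0.33; limma adjusted p = 1.00), and its second probe set gave -1.23, -1.14, -0.86 and -0.12 by pair.

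Igf2r, the mannose 6-phosphate receptor that clears IGF2, measured 8.46, 8.11 and 8.08 in siGFP and 7.58, 7.31 and 7.57 in siYAP/TAZ, with 8.13 in shLacZ and 7.22 in shYAP/TAZ. All knockdowns lie below all controls, with pair differences of -0.87, -0.80, -0.50 and -0.90 and a 4-pair mean of -0.77 (SE 0.19; limma adjusted p = 0.318). Igf2, named after its values were seen, gave -0.65, -0.25, -0.65 and -0.26. The IGF binding proteins and their proteases, 13 of 14 measured, split 7 lower and 6 higher with a median of -0.02, and none kept 1 direction in all 4 pairs.

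Of the PI3K, AKT and mTOR genes below the IGF1 receptor, 24 of 27 measured, 16 were lower and 8 higher in the siRNA mean, where 53.6% of all genes were lower, with a median of -0.22 against -0.02 for all genes. In all 4 pairs 5 were lower (Pik3r2, Tsc1, Tsc2, Rictor and Foxo4), where 8.95% of all genes were, and none was higher, where 6.02% were. Foxo4, a forkhead factor that AKT holds out of the nucleus, differed by nearly the same amount each time, -0.53, -0.54, -0.54 and -0.56 (4-pair mean -0.54, limma adjusted p = 0.487). Pdpk1, the kinase that activates AKT, gave -0.41, -0.61, -0.50 and, in the shRNA pair, 0.26.

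**Figure D4:**
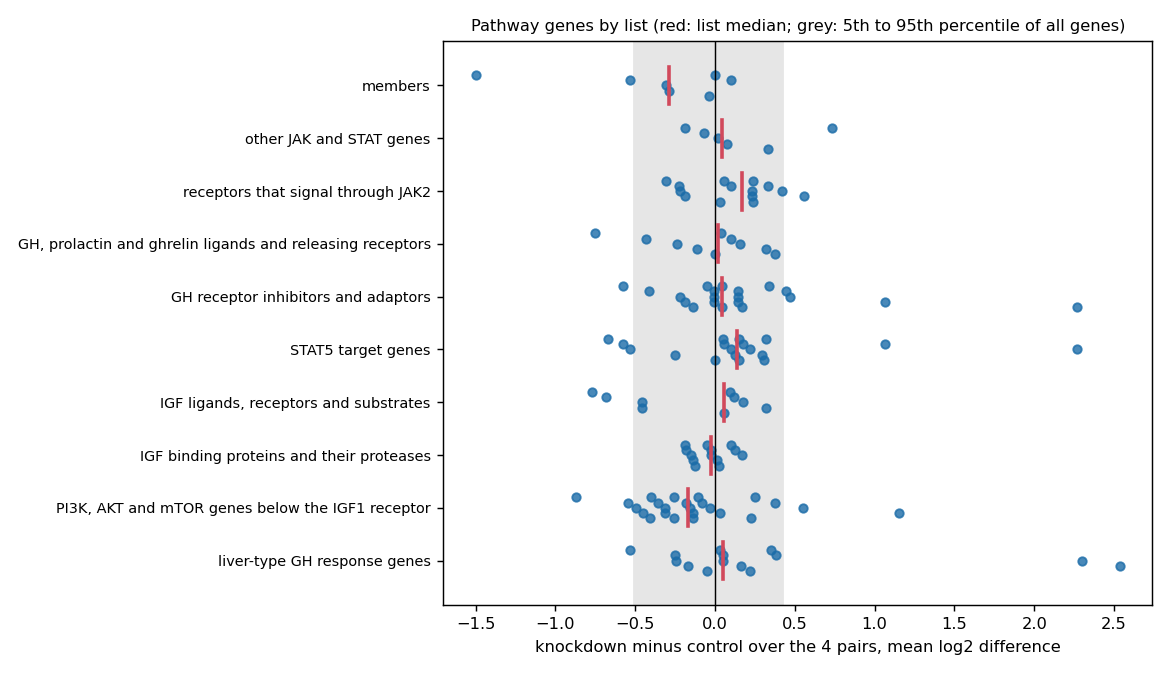
Mean knockdown minus control difference over the 4 pairs (x axis, log2) of each measured gene in the 7-gene axis (top row, members) and the 9 pathway lists, 1 row per list, with each list's median in red and the 5th to 95th percentile of all genes (-0.51 to 0.42) in grey. The medians of all 10 rows lie within that band, Socs3 (2.27) and Cyp4a12a (2.54) lie far to the right, and Ghr (-1.50) lies farthest to the left.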

How the data were processed

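The authors deposited 1 intensity per probe set and array on a linear scale, for 28853 probe sets; how these deposited intensities were background corrected, summarised and scaled is not given in sources used here, and the lowest value of each array lies between 16.0005 and 16.0011. The intensities were put on the log2 scale and quantile normalized, since array medians lay up to 0.32 apart. Probe sets naming 1 gene (21789) were kept, symbols were updated through Entrez identifiers with a RefSeq table (GRCm38), and the brightest probe set stood for each of 19938 genes. Precision is limited by the number of arrays.

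Groups and pairs came from the labels. Limma 3.58.1 in R 4.3.3 (lmFit, eBayes; tested on simulated data) compared 3 siYAP/TAZ with 3 siGFP arrays, and, with the labelled pair as a block, 4 knockdown with 4 control arrays; p-values were adjusted across all 19938 genes by Benjamini-Hochberg and read at 0.05. SEs and intervals are limma's. Members and lists were chosen with earlier results of these data known. Besides the 7 genes, the text names genes of each pathway list whose siYAP/TAZ arrays all lay on one side of siGFP (up to 3 per direction), the genes most like Ghr or Igf1 (SD at least 0.3, leaving out the dimmest genes, no predicted or olfactory receptor genes), up to 3 markers per cell type and the labelled targets; Cish, Socs1, Igf2, Stat3, Ccnd2, Ghrl, Gh and other list genes were named after their values were seen. List genes without a probe set of their own were not analysed here.

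Alternatives were 75th percentile centring, no normalization, 8 subtracted before log2, the mean of all probe sets, leaving out dim genes, eBayes with trend and robust, array weights, other blocking and leaving out each array or pair. The array set as a covariate and each set of pairs alone were added after seeing the data.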

Additional observations from a re-analysis of the deposited data

Results flagged for a closer look

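Socs2, Igf1r and Pdpk1 were each lower in all 3 siRNA pairs and higher in the shRNA pair, by 0.12 for Socs2, 0.28 for Igf1r and 0.26 for Pdpk1. The shRNA effect minus the siRNA effect was 0.87 (95% interval -0.35 to 2.09), 0.78 (-0.47 to 2.02) and 0.76 (-0.40 to 1.92), with limma adjusted p = 1.00 for each and a smallest adjusted p over all genes of 0.315. With 1 shLacZ and 1 shYAP/TAZ array, delivery and array cannot be told apart there.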

How the results depend on the processing

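Ghr stayed negative in all 16 siRNA and 14 four-pair alternatives (-2.15 to -1.28 and -1.73 to -1.27), as did Socs2 and Igf1r (-1.15 to -0.54 and -1.37 to -0.06 in the siRNA arm). No alternative other than those given here changed a sign among the 7 genes, and the causes were not tested. With array weights the siRNA difference was 0.13 for Jak2, 0.044 for Stat5a and -0.24 for Stat5b. Leaving out 1 array gave -0.23 to 0.11 for Stat5a, -0.19 to 0.40 for Stat5b and -0.33 to 0.13 for Igf1. Over the pairs, leaving out 1 pair gave -0.13 to 0.13 for Stat5a, -0.051 to 0.17 for Stat5b and -0.23 to 0.26 for Igf1; pair 1 with the shRNA pair gave 0.074 for Stat5a and -0.026 for Stat5b; Igf1 was -0.025 without normalization, -0.015 with array weights and -0.052 in pairs 2 and 3 alone.

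The siRNA fit called 0 genes, 3 with the array set as covariate, 61 in pairs 2 and 3 alone, and 0 to 13 leaving out 1 array (13 without siYAP/TAZ array 1). With the replicate number as a block it called 1 gene. Deviations of same-numbered arrays from their group means correlated at 0.75, -0.13 and 0.57. Those of siGFP array 3 correlated about as highly with siYAP/TAZ array 2, at 0.58. The pairs used throughout come from the labels, which name the control of each knockdown array. This check does not bear them out for pair 2, and does not tell siYAP/TAZ array 2 from 3 as the partner of siGFP array 3. The 4-pair fit called 4 genes, 15 with 75th percentile centring, 19 without normalization, 8 with 8 subtracted, 8 without dim genes, 12 with trend and robust, 96 with array weights, 0 with no replicate block, 64 in pairs 2 and 3 alone, 162 in pair 1 and the shRNA pair alone, and 1 to 26 leaving out 1 pair (11, 26 and 7 without siRNA pairs 1, 2 and 3, and 1 without the shRNA pair). Of the 7 genes, 2 were lower in every pair without normalization and 1 to 3 leaving out 1 pair (2 without siRNA pair 3, 3 without the shRNA pair); of the 121 others, 18 to 27 were lower and 13 to 20 higher.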
